A study of Mus musculus with 16 samples.

Results

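Cyclic nucleotide phosphodiesterases break down cAMP and cGMP, the messengers through which adrenergic, natriuretic peptide and nitric oxide signals act on the heart. Families of the enzyme differ in substrate and in control: the PDE1 enzymes are switched on by calcium and calmodulin, PDE2A by cGMP, the PDE3 enzymes are inhibited by cGMP, the PDE4 enzymes are specific for cAMP and PDE5A for cGMP. In ventricular muscle, PDE3 and PDE4 enzymes are known for shaping the cAMP signal around the calcium cycling proteins. The 10 genes described here are Pde1a, Pde1b, Pde1c, Pde2a, Pde3a, Pde3b, Pde4a, Pde4b, Pde4d and Pde5a, out of 16593 named genes of the array, and all their 17 probes were taken by gene symbol. Pde1b was put among them because of its high values in hearts with a TRAF2 transgene alone, so its difference between those hearts and controls is a description and is given without a test.

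Left ventricles of male mice had been profiled on single-colour Illumina arrays, 1 array per heart and 4 hearts per genotype. Myh6-TRAF2LC mice (TRAF2LC) carry TRAF2, an adapter of TNF receptors, and Myh6-IkBaDN mice (IkBaDN) carry a mutated IkBa, the protein that holds NF-kB in the cytoplasm. Double transgenic mice carry both, and littermate controls served as the comparison. Both transgenes are driven by the promoter of Myh6, the gene of a cardiac myosin heavy chain, so they act in cardiomyocytes while the arrays read the whole ventricle, where fewer cells of a type and less RNA per cell cannot be told apart. The labels give no ages.

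Values are normalized log2 intensities. Arrays had mean deposited signals of 129.5 to 375.2, lowest in IkBaDN replicates 2 and 3 (129.5 and 203.8), and arrays correlated with each other at 0.954 to 0.990 over the 9449 probes tested. The cardiomyocyte genes Myh6, Tnni3, Actc1 and Myl2 were detected on all 16 arrays, while Ryr2, the other listed cardiomyocyte gene with a probe, was detected on 6. None of the 8 lymphocyte marker genes on the array was tested, each being detected on at most 1 array. A probe counted as detected where its detection p was under 0.01 on at least 4 of the 16 arrays, and a small number of arrays limits the precision.

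Of the 10 genes, 6 were detected by this rule: Pde1a, Pde1b, Pde2a, Pde3a, Pde4a and Pde4d, with 7 of the 17 probes. Apart from Pde3a, each of these genes has a probe detected on all 16 arrays. Pde3a, which encodes the main PDE3 enzyme of the ventricle, was detected on 5 arrays, 0 of them TRAF2LC, 2 IkBaDN, 2 double transgenic and 1 control. Pde3a thus lay just inside the detection rule. Pde1c fell short of it, with 1 of its 2 probes detected on 1 IkBaDN array and the other on 0 arrays. Pde3b, Pde4b and Pde5a have 1 probe each, and these probes were not well above background on any array. Their log2 values, at 4.54 to 4.95 for Pde3b, 4.62 to 5.07 for Pde4b and 4.49 to 5.45 for Pde5a, carry no order between genotypes. The other probes of Pde1a (2), Pde4a (2) and Pde4d (1) were detected on 0 arrays.

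**Figure D1:**
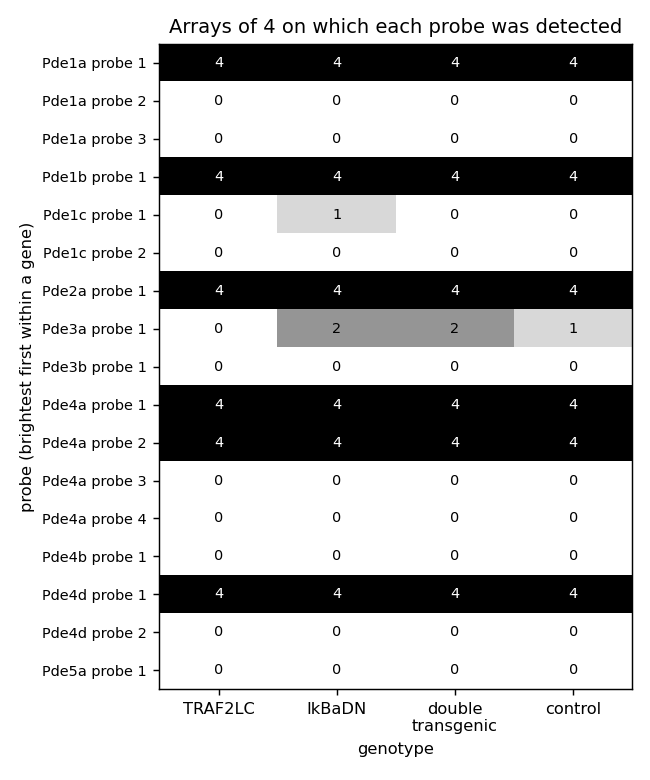
Number of arrays, out of 4 per genotype, on which each of the 17 probes had a detection p under 0.01. Rows are probes, grouped by gene with the brightest first, and columns are genotypes. Pde1b was detected on all 4 arrays of every genotype, Pde3a on 0 of 4 TRAF2LC arrays, and Pde3b, Pde4b and Pde5a on none.

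Pde1b encodes a calmodulin-dependent phosphodiesterase that splits both cAMP and cGMP and is best known from the brain and from macrophages. Its single probe read 7.63, 8.30, 7.67 and 9.03 in TRAF2LC replicates 1 to 4, 6.22, 6.70, 6.80 and 6.54 in IkBaDN replicates 1 to 4, 6.51, 6.40, 6.92 and 6.22 in double transgenic replicates 1 to 4, and 5.90, 6.42, 6.49 and 6.31 in control replicates 1 to 4. All TRAF2LC hearts lay above every heart of the other 3 genotypes, whose values overlapped one another. On the linear scale of the authors' scaled values, the TRAF2LC hearts read 189.5, 319.5, 202.5 and 563.9, the IkBaDN hearts 58.3 to 92.5, the double transgenic hearts 58.5 to 109 and the controls 45.2 to 75.7.

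The genotype means of Pde1b were 8.16 ± 0.65 in TRAF2LC, 6.56 ± 0.26 in IkBaDN, 6.51 ± 0.30 in double transgenic and 6.28 ± 0.26 in control hearts (SD, n = 4 each). The means of the 3 lower genotypes differ from their neighbours by less than 1 SD. TRAF2LC hearts stood 3.67-fold above controls, a log2 change of 1.88 ± 0.25 (SE), with 10 of the 9449 tested probes showing a larger rise. All 4 TRAF2LC values lay above all 4 control values for 3.97% of tested probes. The SE pools the spread of all 4 genotypes, while the spread of Pde1b was larger in TRAF2LC hearts (SD 0.65) than in the others, so this SE may be too small for them. Without TRAF2LC replicate 4, the heart with the highest Pde1b, the log2 change was 1.58.

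**Figure D2:**
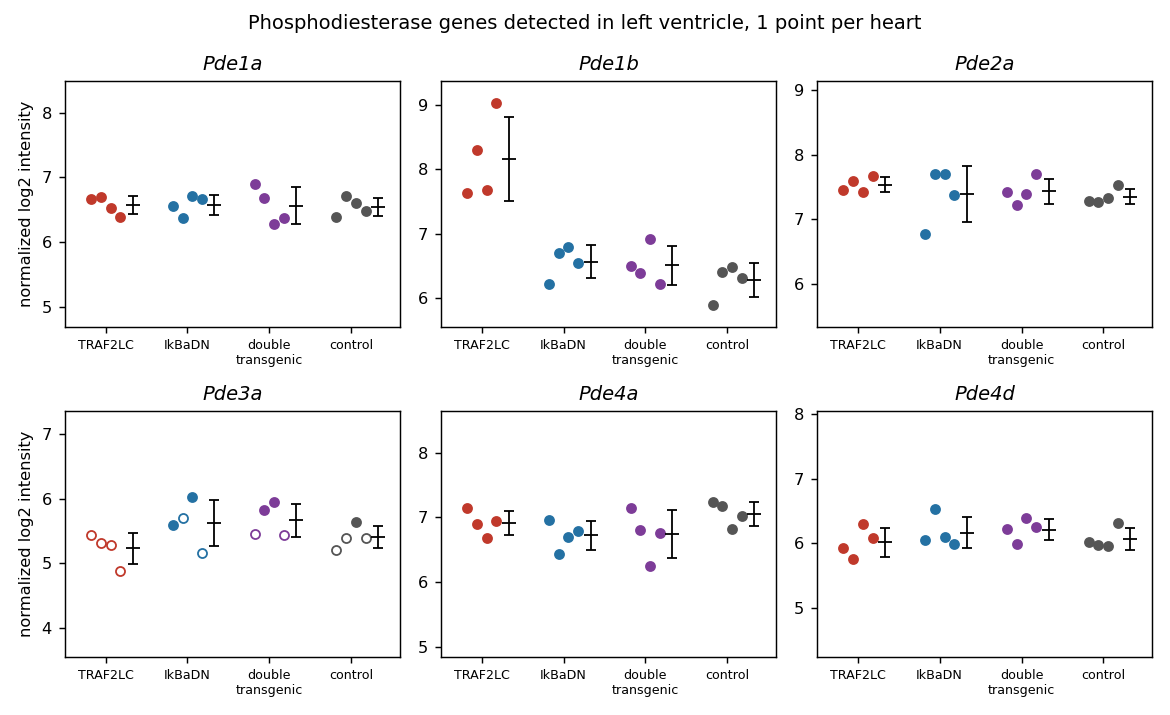
Normalized log2 intensity of the brightest tested probe of the 6 detected genes, 1 point per heart, with the mean and SD of the 4 hearts to the right of each genotype. Open points were not detected on that array, and each panel spans the same number of log2 units. Pde1b lies between 7.63 and 9.03 in TRAF2LC hearts and between 5.90 and 6.92 in all others, while each other gene overlaps between TRAF2LC and control hearts.

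Double transgenic hearts, in which the mutated IkBa was present beside TRAF2, were at 0.320 of the Pde1b level of TRAF2LC hearts (log2 change -1.64 ± 0.25, SE). Their 4 values lay below the 4 TRAF2LC values, as did those of 4.52% of tested probes. Against controls, double transgenic hearts stood at 0.23 ± 0.25 and IkBaDN hearts at 0.28 ± 0.25 on the log2 scale, both with overlapping values. The difference between the TRAF2 effect with and without the IkBa transgene was -1.93 ± 0.36. These 4 values share the TRAF2LC or control arrays on which Pde1b was chosen, so they are descriptions and nothing is read from a test of them.

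For the effect of TRAF2 in the presence of the mutated IkBa, the log2 change itself rests on arrays that the choice of Pde1b did not use. Double transgenic hearts were compared with IkBaDN hearts for that question, and Pde1b had a log2 change of -0.05 ± 0.25, with a 95% confidence interval from -0.59 to 0.49 (limma with Benjamini-Hochberg adjustment, adjusted p = 0.993, n = 4 per genotype). The upper end of the interval corresponds to a level 1.40-fold higher. Across 29 other settings the adjusted p was at least 0.406 and the log2 change lay between -0.19 and 0.30.

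Descriptions of the samples hold a number ending in P, which falls into 3 runs (535 to 538, 617 to 624 and 663 to 675), whose meaning the labels do not give. Within the run from 617 to 624, Pde1b averaged 8.33 in TRAF2LC replicates 1 and 4 and 6.16 in control replicates 1 and 2. Within the run from 663 to 675 it averaged 7.98 in TRAF2LC replicates 2 and 3 and 6.49 in control replicate 3. The 3 double transgenic hearts of that run averaged 6.51, a log2 difference of -1.47 from its 2 TRAF2LC hearts. Within each set of 8 columns of the deposited table, which hold 2 hearts per genotype, the mean of TRAF2LC exceeded that of control hearts by 2.17 and 1.58.

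Markers of macrophages were also higher in TRAF2LC hearts, though 6 of the 7 tested did not pass the test. Of 13 listed markers, 10 have a probe and 7 were tested (Cx3cr1, Cd14, Lyz2, Mrc1, C1qa, C1qb and C1qc), while the defining genes Adgre1, Itgam and Cd163 were detected on 0 arrays. The summed level of the 7 ran from 2843 to 4976 in TRAF2LC hearts, from 2404 to 3202 in IkBaDN hearts, from 2427 to 2833 in double transgenic hearts and from 2277 to 2918 in controls. All 7 were higher in TRAF2LC than in control hearts with a median log2 change of 0.40, against -0.01 over all tested probes, and 1 of the 7 was called at an adjusted p under 0.05, as were 1.04% of all tested probes. That was Cx3cr1, the fractalkine receptor, at 0.85 ± 0.17 (SE, limma, adjusted p = 0.0255), a call that was lost without TRAF2LC replicate 2 or 4 or control replicate 2, 3 or 4 (adjusted p up to 0.103). In double transgenic against TRAF2LC hearts all 7 were lower, with a median of -0.42 against 0.01 over all probes, and Cx3cr1 was again the 1 called (-0.69 ± 0.17, limma, adjusted p = 0.0368), beside 2.97% of all probes. That call was lost in 12 of 29 other settings, among them the replicate number as a block (adjusted p = 0.05485 by limma) and leaving out control replicate 3, TRAF2LC replicate 1, 2 or 4, or double transgenic replicate 1, 2 or 3 (adjusted p up to 0.116).

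TRAF2LC replicate 4 had both the highest Pde1b and the highest marker sum (4976). TRAF2LC replicates 1 to 3, with sums of 3067, 2843 and 2925, lay below the highest sum of the other genotypes, 3202, and read at least 7.63 for Pde1b. Among the other genotypes, IkBaDN replicate 2 had that sum of 3202 and read 6.70 for Pde1b. Its array had the lowest mean signal (129.5). The next highest sum of the other genotypes was 2918, in control replicate 3, which lay below the sums of TRAF2LC replicates 1 and 3. The part of these cells in the Pde1b values was not tested.

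**Figure D3:**
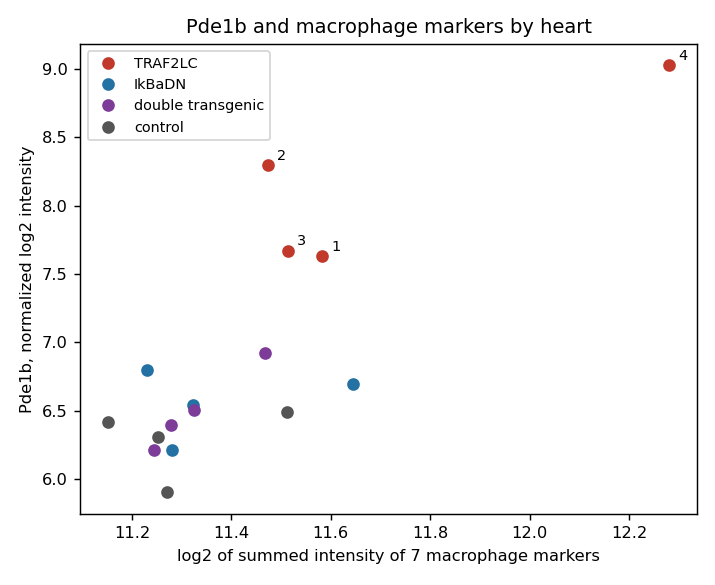
Pde1b (normalized log2 intensity) against the log2 of the summed intensity of 7 macrophage markers, 1 point per heart, coloured by genotype, with replicate numbers beside the TRAF2LC points. TRAF2LC replicate 4 is highest on both axes, and TRAF2LC replicates 1 to 3 lie above all hearts of the other genotypes in Pde1b. Among the other genotypes, only IkBaDN replicate 2, an array of low signal, exceeds the marker sums of TRAF2LC replicates 1 and 3. Control replicate 3 also exceeds that of TRAF2LC replicate 2.

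The genes whose pattern over the 16 arrays was most like that of Pde1b were Tmem130, Strn4, Tmem176a, Btg1 and Tlr2, with Pearson correlations of 0.925, 0.918, 0.908, 0.904 and 0.902. Over the 12 arrays without TRAF2LC hearts the same correlations were -0.16, -0.22, 0.33, 0.25 and -0.34. The points share their arrays and normalization. Strn4, a scaffold protein of the striatin family, had means of 10.93 ± 0.65 in TRAF2LC, 9.07 ± 0.13 in IkBaDN, 9.24 ± 0.16 in double transgenic and 9.14 ± 0.21 in control hearts (SD, n = 4 each). Tlr2, a receptor for bacterial lipoproteins, had means of 7.84 ± 0.79, 6.22 ± 0.12, 6.18 ± 0.19 and 6.36 ± 0.20 in the same order of genotypes. Tmem130, a membrane protein, was detected on 4 arrays only, with means of 6.62 in TRAF2LC, 4.71 in IkBaDN, 4.81 in double transgenic and 4.90 in control hearts. The lowest value that counted as detected on any array was 5.40. Tmem130 thus met the detection rule through the TRAF2LC hearts, and nothing is read from its correlation.

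Because the mutated IkBa is an inhibitor of NF-kB and Pde1b is a member of a cAMP-degrading family, the windows around the RefSeq start sites of Pde1b were searched for the kappaB consensus and for the cAMP response element TGACGTCA and its core TGACG, on both strands. Each window runs from 250 bases before to 50 bases after a start site (RefSeq, GRCm38.p6). Of the 10 genes, 8 matched the table, with 24 windows, and Pde3a and Pde3b did not. Pde1b has 3 windows on chromosome 15, of which 1 holds a kappaB match that begins at position -149 relative to the start site, and neither of the others holds any of the motifs. It is shown with the match in capitals.
Pde1b, window at chr15:103514727-103515026, plus strand, 51.0% G or C: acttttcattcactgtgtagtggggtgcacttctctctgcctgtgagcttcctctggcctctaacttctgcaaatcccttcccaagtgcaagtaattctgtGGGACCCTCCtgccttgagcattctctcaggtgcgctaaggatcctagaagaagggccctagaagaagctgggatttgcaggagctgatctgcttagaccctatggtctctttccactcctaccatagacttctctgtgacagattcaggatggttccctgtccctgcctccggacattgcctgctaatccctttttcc

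The kappaB matches in windows of other members are shown to compare their letters, each read along the strand of its gene. The match at -128 of Pde4b fits the consensus on the opposite strand, and that of Pde1c on both strands.
Pde1c, window at chr6:56362343-56362642, position -197: GGGAAGCCCC
Pde4b, window at chr4:102569810-102570109, position -128: GGAGACCCCC
Pde4b, window at chr4:102587308-102587607, position -59: GGGGCCCTCC
Matches were thus found in 4 of the 24 windows, while 8.46% of all 32851 windows hold one. Neither Pde1c nor Pde4b was detected by the rule above. The core TGACG was found in 1 window each of Pde1a, Pde2a, Pde4a and Pde4b, while 20.8% of all windows hold it, and the full TGACGTCA in 0 of the 24, while 1.79% of all windows hold it. A match is a run of letters and not a bound site, and the start site used in these hearts was not measured.

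Of the other calmodulin-dependent members, Pde1a was detected and Pde1c was not. Pde1a, whose enzyme prefers cGMP, had means of 6.57 ± 0.14 in TRAF2LC, 6.58 ± 0.15 in IkBaDN, 6.56 ± 0.29 in double transgenic and 6.55 ± 0.14 in control hearts (SD, n = 4 each). Single hearts ran from 6.28 to 6.91 with all genotypes overlapping. The 95% interval of its log2 change in TRAF2LC against control hearts was -0.27 to 0.31. Pde1c, whose enzyme splits cAMP and cGMP alike, read 4.88 to 5.95 on its brighter probe, with its 1 detected value in an IkBaDN heart.

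**Figure D4:**
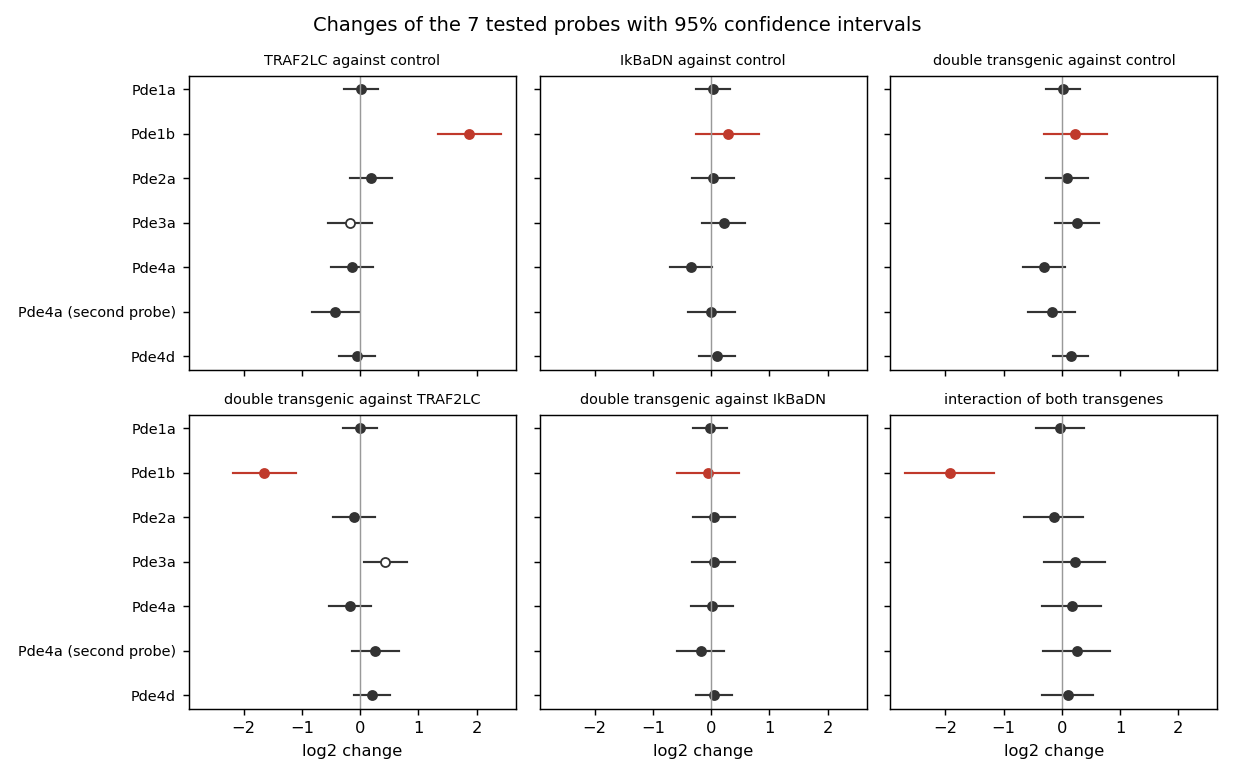
Log2 changes of the 7 tested probes in 6 comparisons, points for the estimate and lines for the 95% confidence interval of the limma fit. Pde1b is in red, and open points mark comparisons in which 1 of the groups had 0 arrays with the probe detected. Outside Pde1b, the only intervals that lie to 1 side of 0 are those of the second Pde4a probe in TRAF2LC against control and of Pde3a in double transgenic against TRAF2LC hearts.

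Pde2a, a dual-substrate enzyme stimulated by cGMP, read 7.46, 7.60, 7.42 and 7.67 in TRAF2LC, 6.77, 7.70, 7.70 and 7.37 in IkBaDN, 7.42, 7.23, 7.39 and 7.70 in double transgenic, and 7.28, 7.27, 7.32 and 7.52 in control hearts. IkBaDN hearts spread most (SD 0.44), with replicate 1 the lowest of all 16 hearts and replicates 2 and 3, the arrays of low signal, the highest. The log2 change in TRAF2LC against control was 0.19 ± 0.17 and in IkBaDN against control 0.04 ± 0.17 (SE). The value in IkBaDN against control hearts was -0.28 without both arrays of low signal, an alternative chosen after seeing the data, and was not called under either setting.

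Pde3a, whose enzyme is the target of milrinone and controls cAMP near the sarcoplasmic reticulum, read 5.43, 5.32, 5.28 and 4.88 in TRAF2LC, 5.60, 5.70, 6.02 and 5.16 in IkBaDN, 5.45, 5.82, 5.94 and 5.44 in double transgenic, and 5.20, 5.39, 5.63 and 5.39 in control hearts. Double transgenic hearts lay above TRAF2LC hearts without overlap, as 5.46% of tested probes did, but with gaps as small as that between 5.44 and 5.43. The measured log2 difference of 0.43 ± 0.18 was not called (limma, adjusted p = 0.233, n = 4 per genotype). Since 0 of 4 TRAF2LC arrays and only 2 of 4 double transgenic arrays detected Pde3a, no fold is drawn from it. Against control, Pde3a stood at 0.26 ± 0.18 in double transgenic and 0.22 ± 0.18 in IkBaDN hearts on the log2 scale (adjusted p = 0.654 and 0.859 by limma).

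Pde4a, the gene of a cAMP-specific enzyme, has 2 tested probes that differ in order between genotypes. The brighter read 7.14, 6.90, 6.69 and 6.94 in TRAF2LC, 6.96, 6.43, 6.70 and 6.80 in IkBaDN, 7.15, 6.81, 6.25 and 6.76 in double transgenic, and 7.23, 7.17, 6.81 and 7.01 in control hearts. Its lowest genotype mean was that of IkBaDN (6.72 ± 0.22) and its highest that of control hearts (7.06 ± 0.19), with overlapping values. The second probe read 6.97, 5.97, 6.56 and 6.32 in TRAF2LC, 6.96, 7.07, 6.77 and 6.76 in IkBaDN, 7.14, 6.60, 6.46 and 6.66 in double transgenic, and 7.22, 6.77, 6.77 and 6.78 in control hearts. There the TRAF2LC mean was the lowest (6.45 ± 0.42), and the means of IkBaDN (6.89 ± 0.15) and control hearts (6.88 ± 0.22) lay side by side.

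The log2 change of Pde4a in IkBaDN against control hearts was -0.34 ± 0.17 on the brighter probe and 0.01 ± 0.19 on the second (limma, adjusted p = 0.678 and 0.998). In double transgenic against control hearts the 2 probes stood at -0.32 ± 0.17 and -0.17 ± 0.19 (adjusted p = 0.533 and 0.819 by limma). In TRAF2LC against control hearts they stood at -0.14 ± 0.17 and -0.43 ± 0.19 (SE). The probes were assigned to different RefSeq transcripts of the gene in the probe table, and whether they read different isoforms was not tested.

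Pde4d, the cAMP-specific enzyme found with the ryanodine receptor, had means of 6.02 ± 0.23 in TRAF2LC, 6.17 ± 0.25 in IkBaDN, 6.21 ± 0.17 in double transgenic and 6.07 ± 0.17 in control hearts (SD, n = 4 each). Single hearts lay between 5.76 and 6.53. Its log2 change was 0.15 ± 0.15 in double transgenic against control and 0.20 ± 0.15 in double transgenic against TRAF2LC hearts (limma, adjusted p = 0.785 and 0.585).

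Counted over the 6 detected genes by their brightest probe, limma called 1 in TRAF2LC against control, Pde1b, where 1.04% of all tested probes were called, and 1 in double transgenic against TRAF2LC hearts, again Pde1b, beside 2.97% of all probes. Nothing is read from these 2 counts, because Pde1b was chosen on the TRAF2LC arrays that enter both. For the same reason Pde1b is left out of the counts that follow wherever TRAF2LC or control arrays enter. Of the 5 other genes, 0 were called in IkBaDN against control (0.444% of all probes). The count was also 0 of 5 in double transgenic against control (0.91%) and in the interaction (0.0212%). In double transgenic against IkBaDN hearts 0 of 6 were called (0.0106%). At an unadjusted p under 0.05, 0 of 5 passed in IkBaDN against control (7.65% of all probes) and in double transgenic against control (10.7%). In double transgenic against IkBaDN hearts 0 of 6 passed it (5.73%). Of the 5 genes other than Pde1b, 0 passed it in the interaction (6.28%) and 1, Pde3a, in double transgenic against TRAF2LC (15.6%). Pde3a was detected on 0 TRAF2LC arrays and met the detection rule through the other genotypes, so nothing is read from that count either. The 5 genes other than Pde1b had log2 changes between -0.17 and 0.19 in TRAF2LC against control, -0.34 and 0.22 in IkBaDN against control, and -0.32 and 0.26 in double transgenic against control hearts. These values are those of the brightest probes, whose 95% intervals reached at most -0.70 and 0.63 in these 3 comparisons. The second Pde4a probe went further in TRAF2LC against control hearts, at -0.43 with an interval from -0.83 to -0.03, and was not called. Smaller changes remain possible with 4 arrays per genotype.

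The rest of the cyclic nucleotide pathway was read from lists of other phosphodiesterases, of enzymes and receptors that make the messengers, of their effectors and anchors, and of their targets. Among 13 other phosphodiesterases with a probe, 1 was tested. That was Pde6d, known as a carrier of prenylated proteins, which had a log2 change of 0.09 ± 0.10 in TRAF2LC against control and -0.18 ± 0.10 in IkBaDN against control hearts (limma, adjusted p = 0.838 and 0.748). Of 21 genes for synthesis and receptors 9 were tested, and 0 were called in any comparison by limma. Of all tested probes, 0.0106% to 2.97% were called, depending on the comparison. At an unadjusted p under 0.05, 2 of the 9 passed in double transgenic against TRAF2LC hearts, where 15.6% of all probes did. In each of the 5 other comparisons 0 passed it. The member with the smallest p was Nos3, the endothelial nitric oxide synthase, with means of 8.95 ± 0.07 in double transgenic and 8.67 ± 0.12 in TRAF2LC hearts (SD, n = 4 each; limma adjusted p = 0.161). Npr3, a clearance receptor for natriuretic peptides, stood at 0.30 ± 0.15 in TRAF2LC and 0.27 ± 0.15 in IkBaDN against control hearts (SE, limma, adjusted p = 0.504 and 0.750). Adcy4, an adenylyl cyclase, stood at 0.16 ± 0.11 in double transgenic against IkBaDN hearts (limma, adjusted p = 0.908).

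Among effectors and anchors, 16 of 22 genes were tested and inhibitors of protein kinase A, the main cAMP effector, were the members that fell. Pkig, the gamma form of the inhibitor, read 10.32, 10.13, 10.003 and 10.05 in double transgenic and 10.48, 10.28, 9.76 and 10.36 in IkBaDN hearts. It read 11.14, 10.98, 11.07 and 11.34 in TRAF2LC and 11.04, 10.85, 10.84 and 10.83 in control hearts. Every heart with the IkBa transgene thus lay below every heart without it. The share of tested probes that separate in this way was not counted, so nothing is read from the separation. Between double transgenic and TRAF2LC hearts alone, 4.52% of tested probes lay lower without overlap. On this probe Pkig fell by 1.01 ± 0.14 in double transgenic against TRAF2LC hearts (SE, limma, adjusted p = 3.69e-04), by 0.76 ± 0.14 in double transgenic against control (adjusted p = 0.0129 by limma) and by 0.67 ± 0.14 in IkBaDN against control hearts (adjusted p = 0.0441 by limma). The first call held in all 29 other settings, the second in 24 and the third in 10. The second was lost, among others, without control replicate 1 or double transgenic replicate 3 or 4 (adjusted p up to 0.0556 by limma), and the third in 13 of the 16 settings that left out a single array. The other 2 tested probes of Pkig were not called in any of these comparisons (log2 changes of -0.17 and -0.39 in the first, -0.14 and -0.04 in the second, and -0.21 and -0.08 in the third), so the fall rests on the brightest probe. The low-signal arrays are IkBaDN arrays, and without both of them Pkig stood at -0.47 in IkBaDN against control and was not called.

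Pkia, the alpha form, fell in double transgenic against TRAF2LC hearts, by 0.61 ± 0.15 on the log2 scale (SE, limma, adjusted p = 0.0322). Its values were 10.92, 11.40, 11.26 and 11.02 in double transgenic and 11.56, 11.96, 11.67 and 11.86 in TRAF2LC hearts. They did not overlap, as was so in this direction for 4.52% of tested probes. The call was lost without any 1 of TRAF2LC replicates 2 and 4 and double transgenic replicates 1, 3 and 4 (adjusted p up to 0.107 by limma). In all, 2 of the 16 effectors and anchors fell and 0 rose in double transgenic against TRAF2LC hearts, with a median log2 change of -0.18 against 0.01 over all probes tested. In IkBaDN against control and in double transgenic against control 1 fell and 0 rose. Of all tested probes, 1.6% fell in double transgenic against TRAF2LC, 0.19% in IkBaDN against control and 0.402% in double transgenic against control hearts. None was called in TRAF2LC against control, where Popdc3, a cAMP-binding membrane protein, had the smallest p (0.39 ± 0.16, adjusted p = 0.363 by limma). None was called in double transgenic against IkBaDN, where it was Akap7, an anchoring protein (-0.30 ± 0.15, adjusted p = 0.852 by limma), nor in the interaction, where it was the anchoring protein Akap12 (-0.31 ± 0.17, adjusted p = 0.837 by limma).

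Of the targets and calmodulin genes 11 of 15 were tested, and Hspb6 was the 1 member called. It was called in double transgenic against control, where 0.91% of all probes were called and 0.402% fell, and in double transgenic against TRAF2LC hearts, where 2.97% were called and 1.6% fell. Hspb6 is a small heat shock protein that protein kinase A phosphorylates in the heart. It read 15.02, 14.66, 14.77 and 14.66 in double transgenic, 14.57, 14.95, 14.85 and 14.80 in IkBaDN, 15.32, 15.32, 15.39 and 15.46 in TRAF2LC, and 15.21, 15.27, 15.27 and 15.32 in control hearts, with no overlap between hearts with and without the IkBa transgene. These values lie near the top of the scale, where quantile normalization gives arrays with the same rank the same value. How many tested probes separate hearts by the IkBa transgene without overlap was not counted, so nothing is read from that separation. Hspb6 fell by 0.59 ± 0.11 in double transgenic against TRAF2LC (SE, limma, adjusted p = 0.00458) and by 0.49 ± 0.11 in double transgenic against control hearts (adjusted p = 0.0442 by limma). In IkBaDN against control it stood at -0.47 ± 0.11, which was not called (adjusted p = 0.0747 by limma). The call against control was lost in 16 of 29 settings, among them 12 of the 16 in which a single array was left out. Elsewhere the members with the smallest p were Ppp1r1b, an inhibitor of protein phosphatase 1, in TRAF2LC against control (-0.62 ± 0.21, adjusted p = 0.252 by limma), Tnni3, cardiac troponin I, in double transgenic against IkBaDN (-0.34 ± 0.19, adjusted p = 0.869) and Hspb8, a small heat shock protein, in the interaction (-0.29 ± 0.19, adjusted p = 0.870).

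Among the 5 tested smooth muscle markers only Acta2, smooth muscle actin, was called, in double transgenic against control and against TRAF2LC hearts. Of all tested probes, 0.91% and 2.97% were called in these comparisons. Acta2 also stood higher in IkBaDN against control hearts, at 0.66 ± 0.19, which was not called (SE, limma, adjusted p = 0.1935). The summed level of the 5 ran from 21240 to 24400 in double transgenic hearts, from 14780 to 25640 in IkBaDN hearts, from 11400 to 14820 in TRAF2LC hearts and from 11070 to 16190 in controls. Acta2 rose by 0.97 ± 0.19 in double transgenic against TRAF2LC and by 1.01 ± 0.19 in double transgenic against control hearts (SE, limma, adjusted p = 0.00638 and 0.0129). Whether these calls hold under other settings was not tested. Against control the median log2 change of the 5 was 0.03, with 3 higher and 2 lower (Myh11 at -0.02, Tagln at -0.04 and Smtn at 0.03), while against TRAF2LC all 5 were higher with a median of 0.37. The sixth marker on the array, Cnn1, was detected on 0 arrays. The part of these cells in the values of Pkig, Pkia and Hspb6 was not tested.

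**Figure D5:**
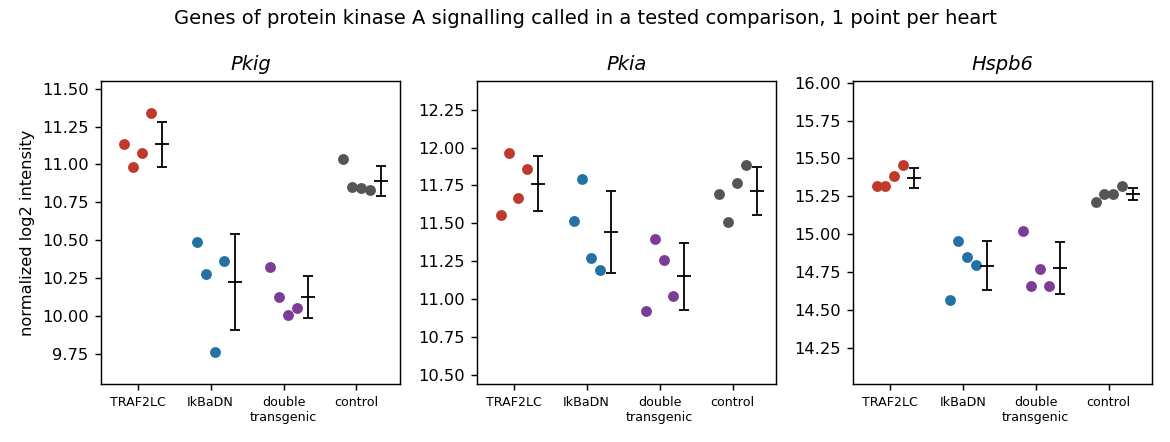
Normalized log2 intensity of Pkig, Pkia and Hspb6, 1 point per heart, with the mean and SD of the 4 hearts to the right of each genotype. Pkig lies between 9.76 and 10.48 in IkBaDN and double transgenic hearts and between 10.83 and 11.34 in TRAF2LC and control hearts.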

How the data were processed

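Total RNA of 16 left ventricles had been labelled with biotin and hybridized to Illumina arrays, per the labels. The deposited intensity of each of the 25697 probes had background subtracted by the authors, since 14378 probes are below 0 on at least 1 array, and a detection p-value was deposited beside it. The authors' scaled intensity, used as an alternative, is the same linear value times 1 factor per array, with array means of 276.1 and medians of 11.0 to 15.4. BeadStudio and GenomeStudio are named, with no steps, per the submitters' processing notes.

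Intensities were corrected with nec of limma 3.58.1 (R 4.3.3) (offset of 16), which uses the detection p-values, put on the log2 scale and quantile normalized. All 16 arrays entered 1 limma fit of 4 genotype means, and p-values were adjusted by Benjamini-Hochberg over 9449 probes. Called means an adjusted p under 0.05. Genes are represented by their tested probe of highest mean. Symbols came from the platform's probe table, with 23978 probes of 1 symbol and 1719 without; RefSeq numbers changed 0 symbols. From each list up to 4 called genes, or the one with the smallest p, are named. Members, lists and tests were chosen with earlier results of these data known. Alternatives were other scalings, filters, blocks, weights and leaving out arrays. Deviations at the same replicate number correlated at over 0.1 in all 4 replicates only for double transgenic and TRAF2LC hearts (0.249 to 0.309). For TRAF2LC and control hearts, replicates 1 and 3 correlated at 0.406 and 0.293, and replicate 2 at -0.294. These values do not show whether the numbers mark pairs. The reported fit is unpaired, and the replicate number entered only as a block among the alternatives.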

Additional observations from a re-analysis of the deposited data

Results flagged for a closer look

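Of 28 combinations of a tested phosphodiesterase probe and a genotype, 1 had a heart far from the other 3. On the second probe of Pde4a, control replicate 1 read 7.22 while the other 3 controls lay between 6.77 and 6.78, so the gap was 0.980 of the whole range of the group. Chance gives about 1 such case in 20 combinations.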

How the results depend on the processing

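The count of the 6 detected phosphodiesterase genes called did not change in the 29 other settings of the 5 comparisons between genotypes. Where TRAF2LC arrays entered, the only gene called was Pde1b. Nothing is read from that, since Pde1b was chosen on TRAF2LC arrays. In the interaction the count was 0 as reported and 1, Pde1b, with array weights. With single arrays left out it was between 0 and 1, with 1 without TRAF2LC replicate 1 or 4. For the same reason, nothing is read from this either. No member with a test was called in any of 888 combinations of gene, comparison and setting. The log2 change of Pde1b in TRAF2LC against control ran from 1.52 (offset of 50) to 2.22 (authors' scaled values), and from 1.58 to 2.05 with 1 array left out. With the replicate number as a block, the log2 change of Pde1b in double transgenic against TRAF2LC stayed at -1.64. The block ended the call of Hspb6 in double transgenic against control (adjusted p = 0.07355 by limma). It also ended that of Cx3cr1 in double transgenic against TRAF2LC (adjusted p = 0.05485 by limma). The other calls of Pkig, Pkia, Hspb6 and Cx3cr1 named here were kept, and those of Acta2 were not run under this setting. Median scaling moved the median of all probes to -0.23 in IkBaDN against control and to 0.35 in double transgenic against IkBaDN; there Pde1a, Pde2a and Pde4d stood at -0.17, -0.22 and -0.11 in the first comparison, near that shift. It ended the calls of Pkia (0.270), Hspb6 (0.407 in double transgenic against TRAF2LC, 0.815 against control) and of Pkig against control (0.740 in double transgenic, 0.183 in IkBaDN). Over all probes, calls ran from 35 to 118 in TRAF2LC against control (98 as reported), 18 to 65 in IkBaDN against control (42), 26 to 168 in double transgenic against control (86), 120 to 397 in double transgenic against TRAF2LC (281), 0 to 4 in double transgenic against IkBaDN (1) and 2 to 18 in the interaction (2). The cause was not tested. Signal over background limits Pde1c, Pde3a, Pde3b, Pde4b and Pde5a.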
